A study of Schizophyllum commune with 6 samples.

Results

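The transcripts described here are the abundant ones whose levels stayed close across strains of Schizophyllum commune, the split-gill mushroom. A gene model was a member if it had at least 1000 RPKM (reads divided by the length of the model and the depth of the library) in each of 6 RNA sequencing libraries, and if the highest of its 6 values was less than 4 times the lowest. Of 14652 gene models 89 met both conditions. The members were chosen by the same 6 RPKM values that give their levels, so levels, shares, ranks and group differences are a description of the members and support nothing further. Of 95 models with at least 1000 RPKM in each library, 6 were left out by the 4-fold limit.

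The libraries came from 3 groups of 2. Strain 12-43 was a wild type with mating type loci A3,5 and B2,2, strain E6 was a wild type with A4,6 and B2,1, and the dhc2 knockout, a deletion of a dynein heavy chain gene, had A3,5 and B2,2 as 12-43 did. All were mycelium grown at 28 °C on CYM, a complete medium, for 3 days on cellophane. According to the strain labels the samples were monokaryons, which carry 1 kind of nucleus, but the growth protocol speaks of mycelium from a mating interaction. Nothing in the labels says that replicates were separate cultures, so the spread between them may be technical and p-values measure only that spread. In such bulk samples fewer cells of a type and less RNA per cell cannot be told apart. SC3, the hydrophobin of aerial hyphae, was present at 4704 to 23009 RPKM in every library, and of the dikaryon hydrophobins SC6 was at 2.68 to 5.04 RPKM in every library. SC4 was at 251 and 509 RPKM in 12-43 and at 3.23 to 8.08 RPKM in the other libraries, and SC1 was at 29.8 and 57.7 RPKM in 12-43 and at 7.57 to 12.7 RPKM elsewhere. No table used here says which identifier is dhc2, and the deletion itself was not checked.

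The denominators behind the RPKM, recovered from the steps of the low values, were 14054525 and 8769918 reads in 12-43, 14372979 and 13857189 in the knockout and 9210239 and 13012283 in E6. The quality reports of the raw reads list the 5-base sequence GAAGA as enriched in 12-43 replicate 1 and both knockout libraries, at 3.00, 3.03 and 3.07 times its expected frequency, and do not list it in the other 3 libraries. The 12-43 replicates therefore lay on different sides of this library split. No frequency is given where the sequence is not listed, so how far the sides differ in it is unknown.

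Growing fungal cells spend much of their mRNA on few genes. In eukaryotes generally, the messages that are both abundant and steady tend to encode parts of the ribosome, translation elongation factors, histones, ubiquitin, glycolytic enzymes and the ADP/ATP carrier, while filamentous fungi add small secreted proteins such as hydrophobins, whose levels follow the developmental state. Dynein moves cargo, in fungi also nuclei, along microtubules. Which of these functions the members have cannot be said here: 18 of the 89 identifiers matched a locus tag of the RefSeq table for assembly Schco3, none of them carried a gene symbol, and that table gives no product names. Members are therefore given by identifier.

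The highest 2 members stood far above the others, and their replicates lay far apart in 12-43 and E6 and close together in the dhc2 knockout. Model 1193825, of 396 nt coding length, was at 32685 and 102666 RPKM in 12-43, at 37556 and 38637 RPKM in the dhc2 knockout and at 122243 and 59718 RPKM in E6. Model 1057308, of 159 nt, was at 28036 and 79270 RPKM in 12-43, at 27325 and 30478 RPKM in the knockout and at 78676 and 38515 RPKM in E6. Both were low in 12-43 replicate 1 and in both knockout libraries, higher in E6 replicate 2, and highest in 12-43 replicate 2 and E6 replicate 1. Both knockout values of model 1193825 lay between the 12-43 replicates, as did 1 of the knockout values of model 1057308. Both models were lower in the knockout than in E6 without overlap, with log2 differences of -1.25 (SE 0.59) for model 1193825 and -1.02 (SE 0.55) for model 1057308. With the library split as a term in the fit these became 0.48 and 0.56. That term rests on the 12-43 replicates alone, since neither the knockout nor E6 had libraries on both sides. The change is therefore the gap between the 12-43 replicates and is no separate measure of the split. Limma called neither model in any comparison. Between replicates of the same strain model 1193825 differed 3.14-fold in 12-43, 1.03-fold in the knockout and 2.05-fold in E6. The corresponding ratios for model 1057308 were 2.83, 1.12 and 2.04.

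**Figure D1:**
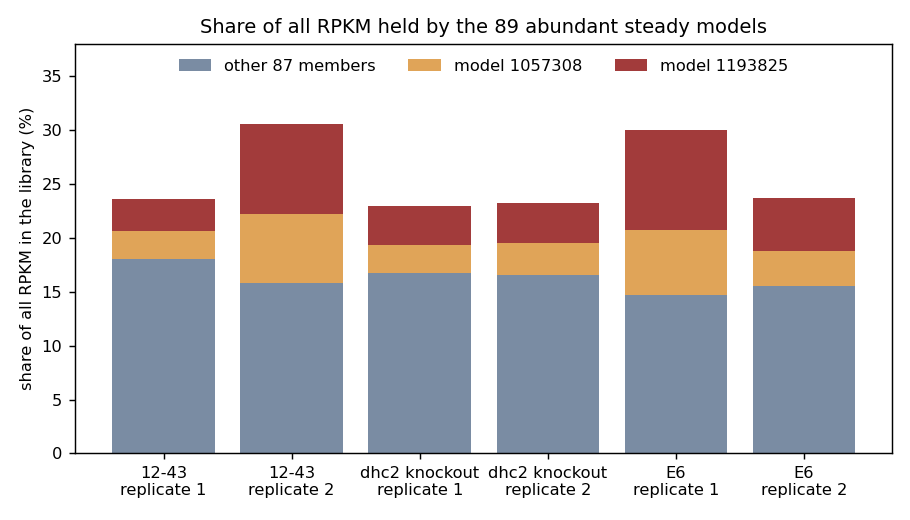
Stacked bars give the share of all RPKM in each library (y axis, percent) held by model 1193825, model 1057308 and the other 87 members, for the 2 replicates of each of the 3 groups (x axis). The share of the other 87 lies between 14.7% and 18.1%, and the tall bars of 12-43 replicate 2 and E6 replicate 1 come from the 2 highest models.

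The libraries in which these 2 models were highest also stood apart in other respects. The share of raw reads that entered the denominator was 49.4% in 12-43 replicate 2 and 46.0% in E6 replicate 1, against 53.0% to 58.7% in the other 4 libraries. The GC content of the raw reads was 57% and 56% in those 2 libraries, 58% in E6 replicate 2 and 59% in the remaining 3. Both models were lower in the 3 libraries with GAAGA listed than in the other 3. This held for 17 of the 89 members and 12.4% of tested models, while 5 members and 12.4% of tested models were higher there. The part of these library properties in the levels of the 2 models was not tested. A replicate pattern like theirs, chosen after their values were seen, was a 12-43 replicate 2 value at least 2 times that of replicate 1 together with an E6 replicate 1 value at least 1.5 times that of replicate 2. It was found in 34 of 12484 tested models (0.272%), of which 2 were members, the same 2 models.

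Members held a large share of all RPKM. It was 22.9% and 23.2% in the dhc2 knockout, 23.6% and 30.5% in 12-43 and 30.04% and 23.7% in E6, with group means of 23.1% ± 0.211 (SD, n = 2), 27.1% ± 4.91 (SD, n = 2) and 26.9% ± 4.47 (SD, n = 2). The wild types overlapped, and both knockout libraries lay just below the lowest wild-type library. The 2 highest models alone held 5.54% and 14.7% in 12-43, 6.24% and 6.65% in the knockout and 15.3% and 8.16% in E6, and differed between the wild-type replicates in the same direction as the total. Counted as recovered reads, which are not divided by length, all members held 14.8% to 18.5% of a library and the 2 highest models 1.75% to 6.18%.

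The other 87 members formed a much steadier mass. They held 18.1% and 15.8% of all RPKM in 12-43, 16.7% and 16.6% in the knockout and 14.7% and 15.6% in E6. Taken of the RPKM without the 2 highest models, their share was 19.1% and 18.5% in 12-43, 17.8% and 17.8% in the knockout and 17.4% and 16.9% in E6, and the 3 groups did not overlap. Their summed level, after scaling between libraries, was 189167 and 197111 RPKM in 12-43, 170712 and 167743 RPKM in the knockout and 201336 and 194351 RPKM in E6. The knockout sum was below every wild-type library, and the wild types overlapped.

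Every member ranked high in every library, though not at the very top as a block. Model 1193825 was the most abundant of all 14652 models in each of the 6 libraries, and model 1057308 was the second in 5 of them and the third in E6 replicate 2. The lowest-ranking member stood at rank 156 and 160 in 12-43, 142 and 138 in the knockout and 178 and 177 in E6. The median rank of the members was 54 and 55 in 12-43, 58 and 57 in the knockout and 71 and 69 in E6. E6 thus had more other models above the members than 12-43 or the knockout had: 186 and 190 models reached 1000 RPKM in E6, against 172 and 163 in 12-43 and 142 and 139 in the knockout.

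**Figure D2:**
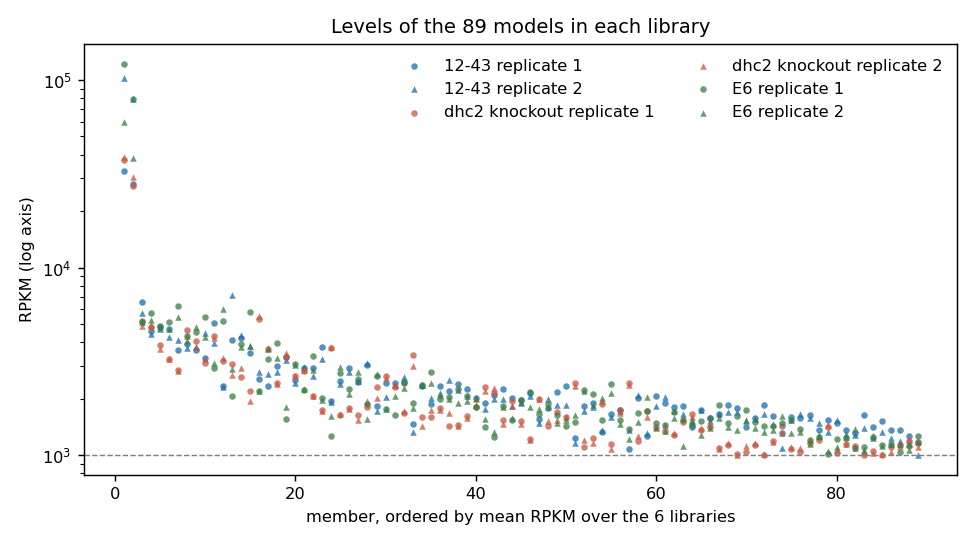
Each of the 89 members is placed by its rank of mean RPKM (x axis), with its RPKM in each of the 6 libraries on a log axis (y axis) and the 1000 RPKM minimum as a dashed line. The leading 2 models lie between 27325 and 122243 RPKM, and all others at or below 7136 RPKM.

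Below the leading pair the levels dropped to a closely spaced series. Model 1184345 (573 nt) was at 6577 and 5729 RPKM in 12-43, 5201 and 4856 RPKM in the knockout and 5104 and 5116 RPKM in E6. Model 1116758 (234 nt) was at 4578 and 4412 RPKM in 12-43, 4802 and 4944 RPKM in the knockout and 5759 and 5275 RPKM in E6. The former was highest in 12-43 and the latter in E6, in each case without overlap with the other groups. Model 1146700 (618 nt) was at 4842 and 4719 RPKM in 12-43, 3861 and 3660 RPKM in the knockout and 4891 and 4819 RPKM in E6. Model 78835 (489 nt) was at 4704 and 4267 RPKM in 12-43, 3237 and 3265 RPKM in the knockout and 5131 and 4730 RPKM in E6. These 2 models shared a knockout level below every wild-type library. Model 1152720 (576 nt) was at 3648 and 3781 RPKM in 12-43, 4065 and 3789 RPKM in the knockout and 4508 and 4834 RPKM in E6, with E6 above the others. Model 1039132 (516 nt), at 3925 and 3745 RPKM in 12-43, 4660 and 4342 RPKM in the knockout and 4309 and 4039 RPKM in E6, had its lowest values in 12-43. Model 1141603 (243 nt) was at 3289 and 4470 RPKM in 12-43, 3092 and 3262 RPKM in the knockout and 5464 and 4282 RPKM in E6. Its replicates differed in 12-43 and E6 in the same sense as those of the leading pair, and after scaling only the knockout and E6 were apart.

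The ratio of the highest to the lowest of the 6 values ran from 1.12 to 3.74 over the members, with a median of 1.59. It was under 1.5 in 36 members, under 2 in 75 and at least 3 in 2. The steadiest was model 1136365 (1335 nt), at 2026 and 1853 RPKM in 12-43, 1818 and 1991 RPKM in the knockout and 1802 and 2023 RPKM in E6. It was also the only member whose groups overlapped in all 3 comparisons after scaling, which held for 3.19% of the tested models. Model 1212274 (474 nt) stayed between 1392 and 1575 RPKM and model 1065770 (405 nt) between 1407 and 1653 RPKM. Model 1171766 (663 nt) stayed between 1142 and 1363 RPKM, and model 67009 (414 nt) between 1459 and 1746 RPKM. After scaling, groups were still set apart in these last 4: the knockout lay below both wild types in models 1212274 and 1171766 and above 12-43 in model 1065770, and E6 lay below the other groups in model 67009.

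Near the limits the choice of members turned on small margins. Just inside the 4-fold limit were model 1193825 with a ratio of 3.74, model 256376 with 3.45 and model 1147135 with 2.99. On scaled RPKM the ratio of model 1193825 was 4.07, so that the most abundant member would not meet the rule on that scale. Just outside it were model 1100005 with 4.35, model 257434 with 4.83 and the hydrophobin gene SC3 with 4.89, followed by models 1265485, 1111327 and 82353 with 6.30, 8.61 and 13.97. Model 1100005 was highest in the knockout, at 4321 and 4379 RPKM. In the other 5 both knockout libraries lay below every wild-type library on RPKM as deposited. For model 1111327 this rested on a narrow margin, 3401 RPKM in knockout replicate 2 against 3450 RPKM in 12-43 replicate 1. SC3 was at 10907 and 13868 RPKM in 12-43, 4842 and 4704 RPKM in the knockout and 21811 and 23009 RPKM in E6. At the 1000 RPKM minimum, the lowest values of models 1166670, 1037949 and 1113735 were 1002, 1003 and 1004 RPKM, each in the knockout, and models 1141136, 1038946 and 1147242 missed it with 994, 992 and 950 RPKM.

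Abundant models as a class were only slightly steadier than the moderately expressed. Among tested models with a mean of at least 1000 RPKM, 141 of 165 (85.5%) stayed under 4-fold, against 1487 of 1782 (83.4%) from 100 to 1000 RPKM, 5372 of 6502 (82.6%) from 10 to 100 RPKM and 2387 of 3663 (65.2%) from 1 to 10 RPKM. The median ratio was 1.72, 1.87, 1.98 and 2.94 in these classes. Replicates of members were close: the median difference between replicates was 0.08 on the log2 scale in 12-43, 0.05 in the knockout and 0.11 in E6, against 0.17, 0.10 and 0.16 over all tested models. The rule bounded this difference in members and left out models with few reads, so nothing is read from the gap. A member had at least 3301 reads in a library, for which counting alone gives an SD of 1.74%.

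**Figure D3:**
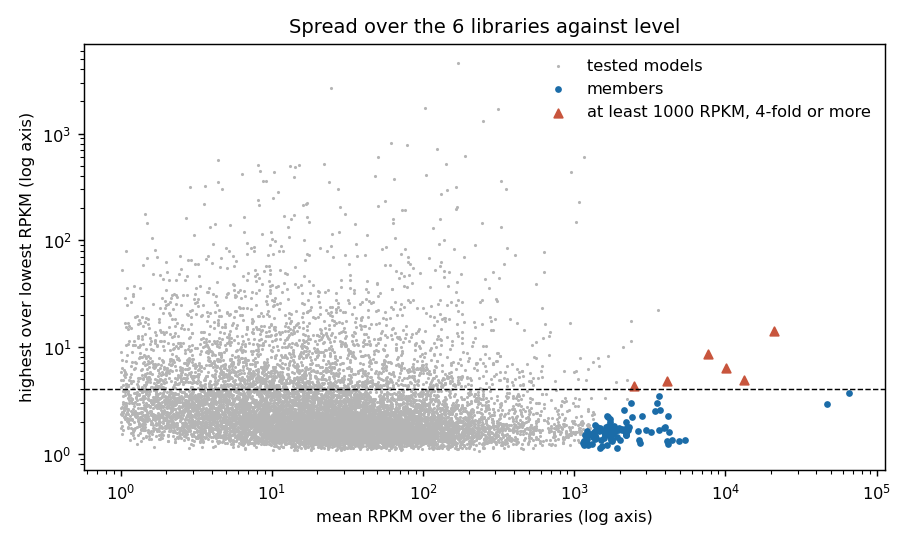
The highest over the lowest RPKM of the 6 libraries (y axis, log) is plotted against mean RPKM (x axis, log) for tested models with a mean of at least 1 RPKM and no value of 0. Members (blue) lie under the dashed 4-fold line by the rule, the 6 models left out by it (triangles) reach 13.97, and the 2 highest members lie at 2.90 and 3.74.

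Differences between groups were taken as log2 differences of RPKM after scaling, and a model was called when limma's adjusted p over all 12484 tested models was under 0.05. All 89 members were tested. The rule limits how far members can differ, so the counts are given beside those over all models and nothing is read from the gap.

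The first comparison asked how the strain without the dynein gene differed from the wild type of the same labelled mating type. The members lay mostly lower in the dhc2 knockout: 46 were called lower, 10 higher and 33 were not called, where 26.9% of all tested models were called lower, 27.8% higher and 54.7% in either direction. The median log2 difference of the members was -0.36, which is 0.782 times the 12-43 level, with quartiles of -0.58 and -0.01, against -0.01 over all tested models. Groups did not overlap in 78 members, where 79.1% of tested models did not: 58 were lower in the knockout and 20 higher, against 39.7% and 39.4% of tested models. The differences were small, and 3 members reached 2-fold (3.37%, against 22.5% of tested models). Without knockout replicate 1 the members called fell to 29 and without knockout replicate 2 to 32, where 38.9% and 39.4% of tested models were called, with a lone knockout library assumed to vary like the other groups.

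The lowest relative to 12-43 was model 1118815 (345 nt), at 3781 and 3243 RPKM in 12-43 and 1738 and 1710 RPKM in the knockout, a log2 difference of -1.03 (SE 0.11), with 2021 and 1974 RPKM in E6. Model 256376 (792 nt) went from 4090 and 7136 RPKM to 3048 and 2661 RPKM, a log2 difference of -0.93 (SE 0.29), and was at 2066 and 2888 RPKM in E6. Model 71602 (486 nt) went from 3498 and 3832 RPKM to 2205 and 1945 RPKM, a log2 difference of -0.83 (SE 0.21). In the first 2 of these 12-43 stood above both other groups. In models 1118815 and 71602 the knockout stood below both wild types. The highest was model 1103154 (285 nt), at 1468 and 1331 RPKM in 12-43 and 3404 and 3003 RPKM in the knockout, a log2 difference of 1.19 (SE 0.12). Model 85500 (918 nt) went from 2555 and 2782 RPKM to 5290 and 5549 RPKM, a log2 difference of 1.02 (SE 0.12), and from rank 29 and 26 to rank 3 in both knockout libraries. Model 1091364 (414 nt) went from 1229 and 1163 RPKM to 2437 and 2339 RPKM, a log2 difference of 0.99 (SE 0.10). In all 3 the knockout lay above every wild-type library.

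The comparison of E6 with 12-43 measured how far wild types of different mating type differ in these transcripts. Here the members were balanced: 17 were called higher in E6, 16 lower and 56 were not called, where 30.3% of tested models were called higher, 29.1% lower and 59.4% in either direction. With unscaled RPKM 14 were called higher and 26 lower, where 27.2% and 32.2% of tested models were. The median log2 difference of the members was -0.03, against -0.0045 over all tested models, with quartiles of -0.25 and 0.25. After scaling, groups did not overlap in 66 members, where 78.7% of tested models did not: 29 were higher in E6 and 37 lower, against 39.4% and 39.3% of tested models. With RPKM as deposited 24 were higher and 46 lower, against 35.9% and 43.3% of tested models. Called members were 20 without 12-43 replicate 1, 21 without knockout replicate 1 and 21 without knockout replicate 2, where 52.8%, 53.4% and 53.4% of tested models were called.

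Model 78936 (1014 nt) was the member furthest above 12-43 in E6, at 5207 and 5988 RPKM against 2352 and 2310 RPKM, a log2 difference of 1.34 (SE 0.12), with the knockout between them at 3176 and 3307 RPKM. Model 1079131 (639 nt) was at 2659 and 2701 RPKM in E6 against 1819 and 1719 RPKM, a log2 difference of 0.68 (SE 0.11), and model 1308100 (309 nt) at 6264 and 5446 RPKM against 3654 and 4092 RPKM, a log2 difference of 0.67 (SE 0.14). All 3 had E6 above both other groups. At the other end model 256376 had a log2 difference of -1.07 (SE 0.29) between E6 and 12-43. Model 1179130 (963 nt) was at 1559 and 1818 RPKM in E6 against 3340 and 3211 RPKM in 12-43, a log2 difference of -0.88 (SE 0.12), and at 3346 and 3518 RPKM in the knockout. Model 1188946 (612 nt) was at 1878 and 1555 RPKM against 3019 and 3084 RPKM, a log2 difference of -0.76 (SE 0.13). Model 1179130 was thus low in E6 alone, with both knockout values just above those of 12-43. In models 256376 and 1188946 the knockout overlapped E6 and 12-43 stood above.

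Between the dhc2 knockout and E6, which differ in mating type, background and the deletion, 41 members were called lower in the knockout, 11 higher and 37 were not called, where 30.9% of tested models were called lower, 31.8% higher and 62.7% in either direction. The median log2 difference of the members was -0.27, against 0.0009 over all tested models. After scaling, groups did not overlap in 76 members, where 84.5% of tested models did not: 59 were lower in the knockout and 17 higher, against 41.8% and 42.7% of tested models. With RPKM as deposited 52 were lower and 21 higher, against 37.8% and 46.7% of tested models. The knockout and E6 lay on different sides of the library split, so a term for it in the fit rests on the 12-43 replicates alone. With that term 23 members were called, 7 higher and 16 lower, where 38.1% of tested models were called, 19.7% higher and 18.4% lower. Without knockout replicate 1 the count was 29 and without knockout replicate 2 it was 33, where 47.3% and 47.1% of tested models were called. Model 71602 was at 2205 and 1945 RPKM in the knockout against 5776 and 3832 RPKM in E6, a log2 difference of -1.27 (SE 0.21). Model 1193825 followed with -1.25 (SE 0.59), a value not called, and model 1308100 with -1.13 (SE 0.14), at 2846 and 2807 RPKM in the knockout. Model 1147135 (3165 nt), the longest member, was at 3713 and 3769 RPKM in the knockout against 1261 and 1610 RPKM in E6, a log2 difference of 1.31 (SE 0.14), with 1956 and 1930 RPKM in 12-43. Models 85500 and 1179130 had log2 differences of 1.22 (SE 0.12) and 0.94 (SE 0.12).

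**Figure D4:**
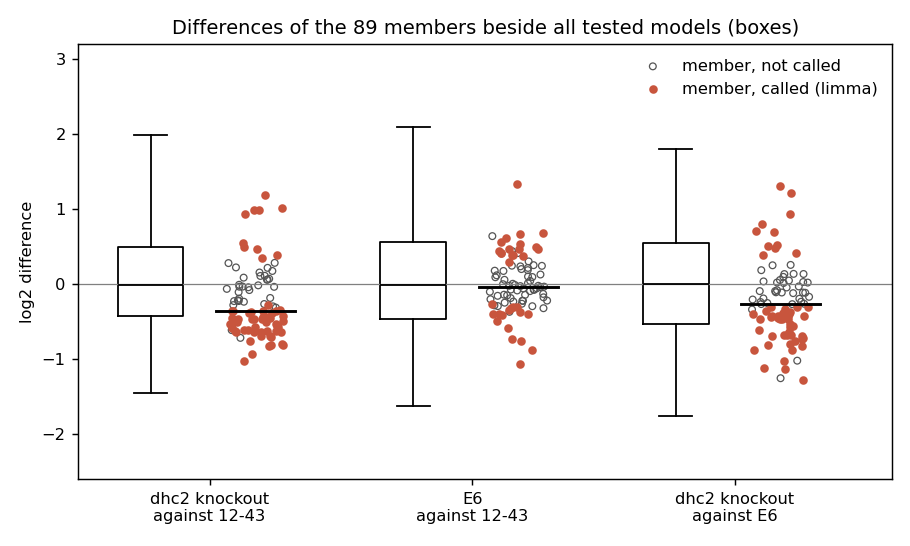
Log2 differences (y axis) are shown for the 3 comparisons (x axis), with 1 point for each of the 89 members, filled where limma called it, a black line at the members' median, and a box for all tested models with whiskers from the 5th to the 95th percentile. The members' medians are -0.36, -0.03 and -0.27.

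Set side by side, the 3 groups split the members unevenly. The knockout lay below both wild types, without overlap after scaling, in 48 members and above both in 10, which are patterns found in 24.4% and 25.6% of tested models. Strain E6 lay above the other groups in 23 members and below them in 12 (25.7% and 25.9% of tested models). Strain 12-43 lay above the other groups in 27 members and below them in 12 (22% and 21.7% of tested models). In 49 members all 3 groups were apart from one another, as in 53.8% of tested models. By limma's calls 35 members were lower in the knockout than in both wild types and 5 were higher than in both, where 15.3% and 16% of tested models were. In all 3 comparisons 10 members were called and in none 18, where 22.6% and 17.1% of tested models were. The rule used these contrasts, and nothing is read from the gaps. These comparisons share libraries, so the patterns are not independent of one another.

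**Figure D5:**
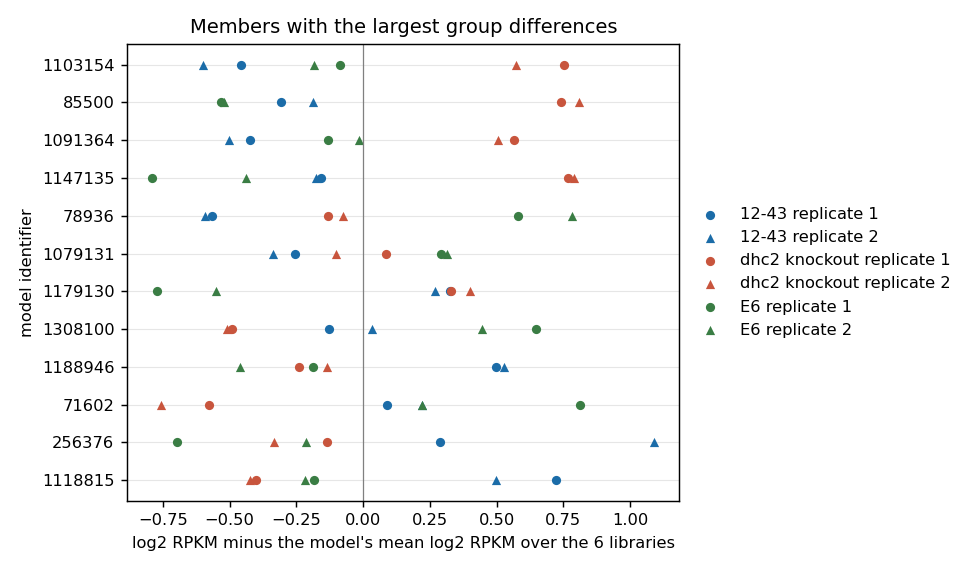
For the 12 members, other than model 1193825, with the 3 largest differences in either direction of any comparison whose groups did not overlap, each point is the log2 RPKM of a library minus the mean of the 6 log2 values of that model (x axis), by model (y axis), coloured by group with a symbol for each replicate. Models 1103154, 85500, 1091364, 1147135 and, by a narrow margin over 12-43, 1179130 have both knockout libraries to the right of all wild-type libraries. Models 1118815, 71602 and 1308100 have them to the left.

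Members were short, and their differences between the knockout and 12-43 were ordered by length. The coding length recovered from the value steps had a median of 543 nt over the members, with a range of 159 to 3165 nt, against 1113 nt over 13715 models with a recovered length. Shortness was not particular to the members. The median was 489 nt over all 165 tested models with a mean of at least 1000 RPKM, and 846 nt from 100 to 1000 RPKM. Of 51 members under 600 nt, 33 were called lower in the knockout than in 12-43 and 2 higher, where 33.4% and 22.3% of tested models under 600 nt were. Of 38 members of 600 nt or more 13 were called lower and 8 higher, where 25.3% and 29.1% of tested models of that length were. The median log2 difference between the knockout and 12-43 was -0.46 in the 51 members under 600 nt, -0.22 in 27 members of 600 to 1200 nt and 0.22 in 11 members of 1200 nt or more. Over all tested models the medians in the same length classes were -0.13, -0.07 and 0.06, in the same order and closer to 0. Between the knockout and E6 they were -0.43, -0.20 and 0.25 in the members and -0.35, -0.10 and 0.18 over all tested models. Between E6 and 12-43, both wild types, they fell with length, at -0.01, -0.06 and -0.15 in the members and 0.19, 0.05 and -0.10 over all tested models. Length therefore moved with the differences of every comparison, in the whole libraries as well. Its part in the members' differences was not tested. By level, the median log2 difference between the knockout and 12-43 was -0.36 for the 165 models of at least 1000 RPKM, -0.10 from 100 to 1000 RPKM, -0.01 from 10 to 100 RPKM and 0.02 from 1 to 10 RPKM.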

How the data were processed

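The authors deposited RPKM for 14652 gene models in each of 6 libraries, per the file headers, and each file ends with quality metrics of its raw reads from FastQC 0.9.2. Reads were single, of 50 bases per the labels' protocols and 51 bases per those metrics. TopHat, DESeq and edgeR were used, per the submitters' processing notes, in roles and versions that these do not state. Not given in the sources used here: genome build, annotation, counting rules and use of strand, so reads of near-identical, overlapping or antisense genes may be split in unknown ways.

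RPKM were read with a decimal comma. Denominators, coding lengths and whole reads were solved from the value steps; 13715 of 13715 models above 0 came out whole within 0.005 reads plus rounding. Lengths and reads are the smallest that meet this. Models with 0.744 CPM, relative to the recovered denominator, in at least 2 libraries (10 reads at the median depth) and 15 reads in all were tested, which kept 12484. Scaling used trimmed means of M values, with 30% of M and 5% of A trimmed (factors 0.961 to 1.05), and log2(RPKM + 0.5) was fitted with limma 3.58.1 (R 4.3.3), with trended moderated variance, group as the only term and 3 residual degrees of freedom. P-values were adjusted by Benjamini-Hochberg across the tested models, and 0.05 was the threshold. Fold changes on this scale are understated for low models, strongly so where values lie below the added 0.5 RPKM. Scripts were tested on simulated data. Between replicates the differences exceeded counting noise (mean chi-square per model 34.3, 2.98 and 18.7), so none were merged.

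The members and the rules were chosen with earlier results of these data known. Members were named if they were among the 10 highest, the 3 largest differences in each direction and comparison without overlap, the 5 steadiest, or the 3 nearest each limit. Lists by product keyword could not be applied, since the tables used give no product names. Alternatives were other scalings, pseudocounts, filters, designs, limits of the rule and each library left out. Identifiers were matched by RefSeq locus tag, 3636 of 14652.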

Additional observations from a re-analysis of the deposited data

How the results depend on the processing

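The number of members was 222 with a minimum of 500 RPKM and 20 with 2000 RPKM, and between 75 and 95 under the other limits, on scaled RPKM (83, without the most abundant member, model 1193825, whose ratio was then 4.07) or without 1 library (89 to 95). The members' share in 12-43, the dhc2 knockout and E6 was 16.7%, 14.8% and 17.0% of recovered reads, 21.4%, 19.4% and 19.7% of RPKM without the highest member, 16.9%, 16.6% and 15.1% without the 2 highest (chosen after seeing the data), and 28.8%, 23.6% and 29.5% with a total that leaves out the 10 highest other models. Without 1 library the share was 23.6% to 30.5% in 12-43, 22.9% to 23.2% in the knockout and 23.7% to 30.04% in E6. Members called without 1 library were 29 to 55 for the knockout against 12-43, 20 to 28 for E6 against 12-43 and 29 to 56 for the knockout against E6, and models called were 4858 to 6625, 6084 to 7196 and 5885 to 8197. With the library group as a term 23 members and 4758 models were called between the knockout and E6. In that fit the term rests on the 12-43 replicates alone and leaves fewer residual degrees of freedom. Other alternatives left each count within 1.5 times its value. The cause of these shifts was not tested, beyond the fewer libraries, models or degrees of freedom that an alternative uses. Of 1392 log2 differences of the 29 named members under alternatives, 1330 moved by less than the replicate SD, 62 by more, and no called difference changed sign. Many of the 1330 could not move. Dropping the filter, fitting only the compared groups and the replicate block change p-values but leave log2 differences as they were. The same holds for leaving out a library of the group not compared. The count of 1330 therefore overstates how firm the differences are. Replicate numbers are shared between groups, but the deviations of same-numbered libraries correlated at 0.0030, 0.025 and -0.0013 over all tested models. Over the members alone the correlations were 0.21, -0.52 and -0.20. The numbers thus did not pair the libraries over all tested models. With the replicate block 50, 26 and 48 members were called in the 3 comparisons, in place of 56, 33 and 52. RPKM depends on length, and counting error is small at these levels, so depth limits little here.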

Other observations

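Model 1111327 (153 nt), left out of the members by its ratio of 8.61, was highest in the same libraries as the leading pair of members in 12-43 and E6: it was at 3450 and 22182 RPKM in 12-43, 2577 and 3401 RPKM in the dhc2 knockout and 8509 and 5703 RPKM in E6. Of the 34 tested models with the replicate pattern of the leading pair, the next by mean level was model 1166656 (258 nt), at 6.34 and 14.1 RPKM in 12-43, 53.9 and 67.4 RPKM in the knockout and 18.9 and 11.02 RPKM in E6. It had 23 to 241 reads in a library, against 62445 to 445850 for the leading pair.

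The 6 models left out by the 4-fold limit together held 4.09% and 6.08% of all RPKM in 12-43, 1.85% and 1.89% in the knockout and 7.58% and 7.70% in E6, and the 3 groups did not overlap. Model 82353 (288 nt) had the widest range of these, at 14332 and 18547 RPKM in 12-43, 3332 and 3210 RPKM in the knockout and 44855 and 41844 RPKM in E6. Model 1265485 (378 nt) was at 10336 and 13733 RPKM in 12-43, 2796 and 2615 RPKM in the knockout and 16473 and 14353 RPKM in E6. In both, the knockout was lowest and E6 highest, as it was for SC3.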
